A study of Mus musculus with 25 samples.

Results

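The genes described here encode 8 transcriptional regulators of the circadian clock in liver, grouped here as clock output factors: Dbp, Tef, Hlf, Nfil3, Nr1d1, Nr1d2, Ciart and Bhlhe41. They were chosen by name. Where several probes match a gene, the brightest on average over the arrays was used. All 8 were found among the 17016 gene symbols on the array. Mouse liver RNA, labelled with Cy3, was hybridised to 25 arrays of a single colour. At 2 months there were 3 knockout, 3 hemizygous and 2 wild-type mice. Tumor, labelled hepatocellular carcinoma, and corresponding non-tumor tissue came from each of 3 knockout mice of 8 months and 4 knockout mice of 12 months, beside 3 wild-type mice of 12 months. The knockout removes Mcl-1, an anti-apoptotic BCL-2 family protein, in hepatocytes, according to the series title. The labels name no Cre driver, strain, sex or hour of collection, and they state that the animals were untreated and that whole-liver homogenate was used.

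The liver clock turns on a loop in which CLOCK and ARNTL (BMAL1) activate genes through E-box sequences and are held back by PER, CRY, CIART and BHLHE41. The PAR bZIP activators DBP, TEF and HLF bind D-box sequences in genes of drug, lipid and bile acid metabolism, and NFIL3 represses through the same D-box. The REV-ERB receptors, encoded by Nr1d1 and Nr1d2, repress Arntl and other genes through RORE sequences, and the transcripts of most of these factors are known to rise and fall over the day in mouse liver.

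The sequence before the transcription start is shown for 4 of the genes whose levels varied most from mouse to mouse or moved together, as 250 bases from RefSeq (GRCm38.p6). Entries were found for 8 of 8 genes, with 9 windows because Tef has entries for a pair of starts. CACGTG, the E-box, was searched on both strands and is set in capitals, as is the variant CACGTT where it or its reverse complement occurs. In the Ciart window (chr3:95882229-95882478, minus strand) it occurs 3 times, in each Tef window (chr15:81802423-81802672 and chr15:81811164-81811413, plus strand) once, in the Nr1d1 window (chr11:98775378-98775627, minus strand) only as the variant, and in the Dbp window (chr7:45704997-45705246, plus strand) not at all. Positions are counted back from the start.
Ciart: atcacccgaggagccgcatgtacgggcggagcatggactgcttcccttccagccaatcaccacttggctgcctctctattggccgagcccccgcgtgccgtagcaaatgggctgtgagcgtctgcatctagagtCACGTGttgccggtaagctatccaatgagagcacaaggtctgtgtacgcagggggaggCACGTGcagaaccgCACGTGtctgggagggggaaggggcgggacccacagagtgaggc
Tef, first start: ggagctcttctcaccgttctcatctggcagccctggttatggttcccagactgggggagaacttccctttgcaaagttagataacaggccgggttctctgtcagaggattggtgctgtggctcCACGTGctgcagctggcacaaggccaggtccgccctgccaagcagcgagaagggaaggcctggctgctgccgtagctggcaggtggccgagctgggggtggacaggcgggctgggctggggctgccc
Tef, second start: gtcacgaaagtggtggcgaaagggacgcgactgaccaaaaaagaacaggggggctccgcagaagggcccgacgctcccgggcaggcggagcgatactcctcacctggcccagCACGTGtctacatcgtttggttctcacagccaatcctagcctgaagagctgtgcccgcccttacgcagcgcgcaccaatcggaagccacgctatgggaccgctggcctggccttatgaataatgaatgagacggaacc
Nr1d1: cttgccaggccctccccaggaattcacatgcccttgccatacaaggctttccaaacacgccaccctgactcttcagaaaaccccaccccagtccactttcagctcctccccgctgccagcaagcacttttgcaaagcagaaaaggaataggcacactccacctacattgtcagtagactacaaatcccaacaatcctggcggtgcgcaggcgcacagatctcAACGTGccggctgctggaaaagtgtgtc
Dbp: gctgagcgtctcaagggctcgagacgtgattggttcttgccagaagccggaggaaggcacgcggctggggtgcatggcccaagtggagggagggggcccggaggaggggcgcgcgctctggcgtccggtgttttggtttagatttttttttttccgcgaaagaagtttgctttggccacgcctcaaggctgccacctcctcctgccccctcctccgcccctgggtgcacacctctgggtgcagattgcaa
The Ciart E-boxes begin at -116, -58 and -44, those of Tef at -127 and -138, and the Nr1d1 variant at -28. CACGTG was in 6.02% of 32851 windows of this length, and 0.0609% of windows held it 3 times or more. CACGTT was in 3.85% of windows. The Bhlhe41 window (chr6:145865421-145865670, minus strand) held CACGTG once, at -153, so that 3 of the 8 genes had it. AGGTCA, the core of sites that nuclear receptors bind, was found at -12 in the Nfil3 window and at -77 in the Nr1d2 window, and in 14% of all windows. The D-box sequences TTATGTAA (0.819% of windows) and TTACGTAA (0.113%) were in none of the 9 windows, and the Hlf window held no searched motif.

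Values below are levels, the log2 of the processed signal minus the 75th percentile of its array, so that a level of 0 equals that percentile. Levels of different genes come from different probes and are not set against each other. Between 60.3% and 84.9% of probes were well above background per array, with wild-type animal 641 of 12 months highest and the next array at 76.3%. The 25 arrays lay on 8 slides scanned on 2 days, and no slide held both knockout and wild-type arrays of 2 months. Mcl1 itself averaged 1.82 ± 0.28 in 2-month knockout livers and 4.26 ± 0.34 in wild-type livers (SD, n = 3 and 2), a change of -2.44 (SE 0.37, limma adjusted p = 0.046). Hemizygous livers lay between, at 3.34 ± 0.21 (SD, n = 3), and the knockout change against them was -1.52 (SE 0.33, limma adjusted p = 0.16). At 12 months the change of Mcl1 in knockout non-tumor tissue against wild type was -1.66 (SE 0.31, limma adjusted p = 0.094). Xist, read here for sex, which the labels do not name, was well above background on 1 of 3 knockout, 3 of 3 hemizygous and 1 of 2 wild-type arrays of 2 months. At 12 months it was so on 1 of 3 wild-type and 2 of 4 knockout non-tumor arrays, and at 8 months on 3 of 3 knockout non-tumor arrays. In 8-month animal 934 its level was -4.98 in non-tumor tissue and -7.39 in tumor, where it was not well above background. Of 7 hepatocyte markers 5 were on the array, and each was well above background on every array except in the 12-month non-tumor knockout group, where 4 of 5 were. Dbp, Tef, Hlf, Nfil3, Nr1d1 and Nr1d2 were well above background on 25 of 25 arrays, Ciart on 12 and Bhlhe41 on 13, and none was saturated.

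The first question was whether the clock outputs differ when hepatocytes lack Mcl-1 at 2 months. Levels of Dbp, Tef, Hlf, Nr1d2 and Ciart lay lower in all 3 knockout livers than in every hemizygous and wild-type liver of that age, with mean changes against wild type between -5.28 and -1.29 log2 units. Nfil3 and Nr1d1 averaged higher, and the change of Bhlhe41 was -0.36. None of the 8 genes passed an adjusted p of 0.05 with limma, against 0.0259% of 27016 genes tested (7 genes). At an unadjusted p under 0.05, 5 of 8 were lower, against 4.34% of all genes lower and 8.88% in either direction. The 5 were Dbp, Tef, Hlf, Nr1d2 and Ciart. With so few arrays, ranges that do not overlap were common: 19.3% of all genes lay wholly lower and 17.5% wholly higher in the knockout.

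Among the PAR bZIP activators, Dbp, the factor that binds the albumin D-site, stood at -0.20, 3.80 and 4.76 in the 3 knockout livers, at 6.30, 6.68 and 7.03 in hemizygous livers and at 6.54 and 7.23 in wild-type livers. The knockout livers were all below the others, and animal 137 was far below the other knockouts. The change against wild type was -4.10 (SE 1.86, limma adjusted p = 0.55), and against hemizygous livers -3.88 (SE 1.66, limma adjusted p = 0.55). Without animal 137 these changes were -2.60 and -2.39. Tef, thyrotroph embryonic factor, was at 0.49, 1.70 and 2.27 in knockout livers, against 3.84, 3.92 and 3.97 in hemizygous and 3.83 and 3.96 in wild-type livers. All 5 hemizygous and wild-type values fell within 0.14 of each other, and no knockout value came near them. The changes were -2.42 against wild type (SE 0.62, limma adjusted p = 0.27) and -2.43 against hemizygous livers (SE 0.56, limma adjusted p = 0.18). Hlf, hepatic leukemia factor, was at 0.89, 0.93 and 1.24 in knockout livers, against 1.90, 2.35 and 2.50 in hemizygous and 2.21 and 2.40 in wild-type livers. The groups did not overlap and the knockout livers were close to each other, unlike for Dbp. The changes were -1.29 (SE 0.36, limma adjusted p = 0.32) against wild type and -1.23 (SE 0.33, limma adjusted p = 0.28) against hemizygous livers.

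Nfil3, the D-box repressor, was at 2.21, 3.17 and 4.08 in knockout livers, against 1.79, 1.82 and 3.07 in hemizygous and 2.39 and 2.75 in wild-type livers. The groups overlapped, with the highest value in knockout animal 137, which had the lowest Dbp. The change against wild type was 0.58 (SE 0.80, limma adjusted p = 0.90). Of the REV-ERB receptors, Nr1d2 was at -0.12, 0.28 and 0.93 in knockout livers, against 1.93, 2.15 and 2.46 in hemizygous and 1.98 and 2.30 in wild-type livers. Knockout values were all lower, and the change against wild type was -1.78 (SE 0.74, limma adjusted p = 0.51). Nr1d1 did not follow it: it was at -0.46, 0.49 and 1.52 in knockout livers, against -1.26, -0.25 and 0.47 in hemizygous and -0.91 and -0.63 in wild-type livers. Knockout values lay above the wild-type values and overlapped the hemizygous values, with a change of 1.29 against wild type (SE 1.42, limma adjusted p = 0.87). With slide as a fixed block, which joins these groups only through animal 137 and the hemizygous animals, that change was -1.05.

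Ciart, a repressor of CLOCK and ARNTL, was at -7.90, -3.65 and -0.50 in knockout livers, against 1.01, 1.34 and 1.70 in hemizygous and 1.21 and 1.31 in wild-type livers. Its signal was not well above background in knockout animal 137, so the size of that value is uncertain. The other knockout livers were also below all 5 hemizygous and wild-type livers. The change was -5.28 against wild type (SE 2.16, limma adjusted p = 0.51), -3.34 without animal 137 and -2.77 with normexp background correction and quantile normalization. Bhlhe41, an E-box repressor, was at -4.78, -4.74 and -4.32 in knockout livers, against -4.47, -4.19 and -3.89 in hemizygous and -4.35 and -4.15 in wild-type livers. Its groups overlapped, and the change against wild type was -0.36 (SE 0.84, limma adjusted p = 0.94).

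Against hemizygous livers, again 0 of 8 genes passed the adjusted threshold with limma, where 0.0518% of 27019 genes did, and the same 5 genes were lower at an unadjusted p under 0.05, as 4.3% of all genes were (8.34% in either direction), and wholly lower, as 9.57% were. These comparisons share the 3 knockout arrays and are not independent. When knockout animal 137 was left out, 2 of the 8 genes had an unadjusted p under 0.05 in either comparison, as when wild-type animal 31 or 34 was left out of the comparison with wild type. For these refits the share of all genes at that p was not counted. On the slide that held knockout animal 137 with hemizygous animals 27 and 28, Dbp was at -0.20 in the knockout against a mean of 6.66 in the hemizygous livers, and Tef at 0.49 against 3.94. A fit with slide as a fixed block joins knockout and wild type of 2 months only through this slide and that of hemizygous animal 30, so it is no separate estimate. Between hemizygous and wild-type livers, 0 of 8 genes passed with limma and 0 had an unadjusted p under 0.05, beside 0% of 27015 genes adjusted and 1.24% unadjusted. Changes of the 8 genes there were between -0.34 and 0.43, and all 8 ranges overlapped, where 18.5% of all genes did not overlap.

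**Figure D1:**
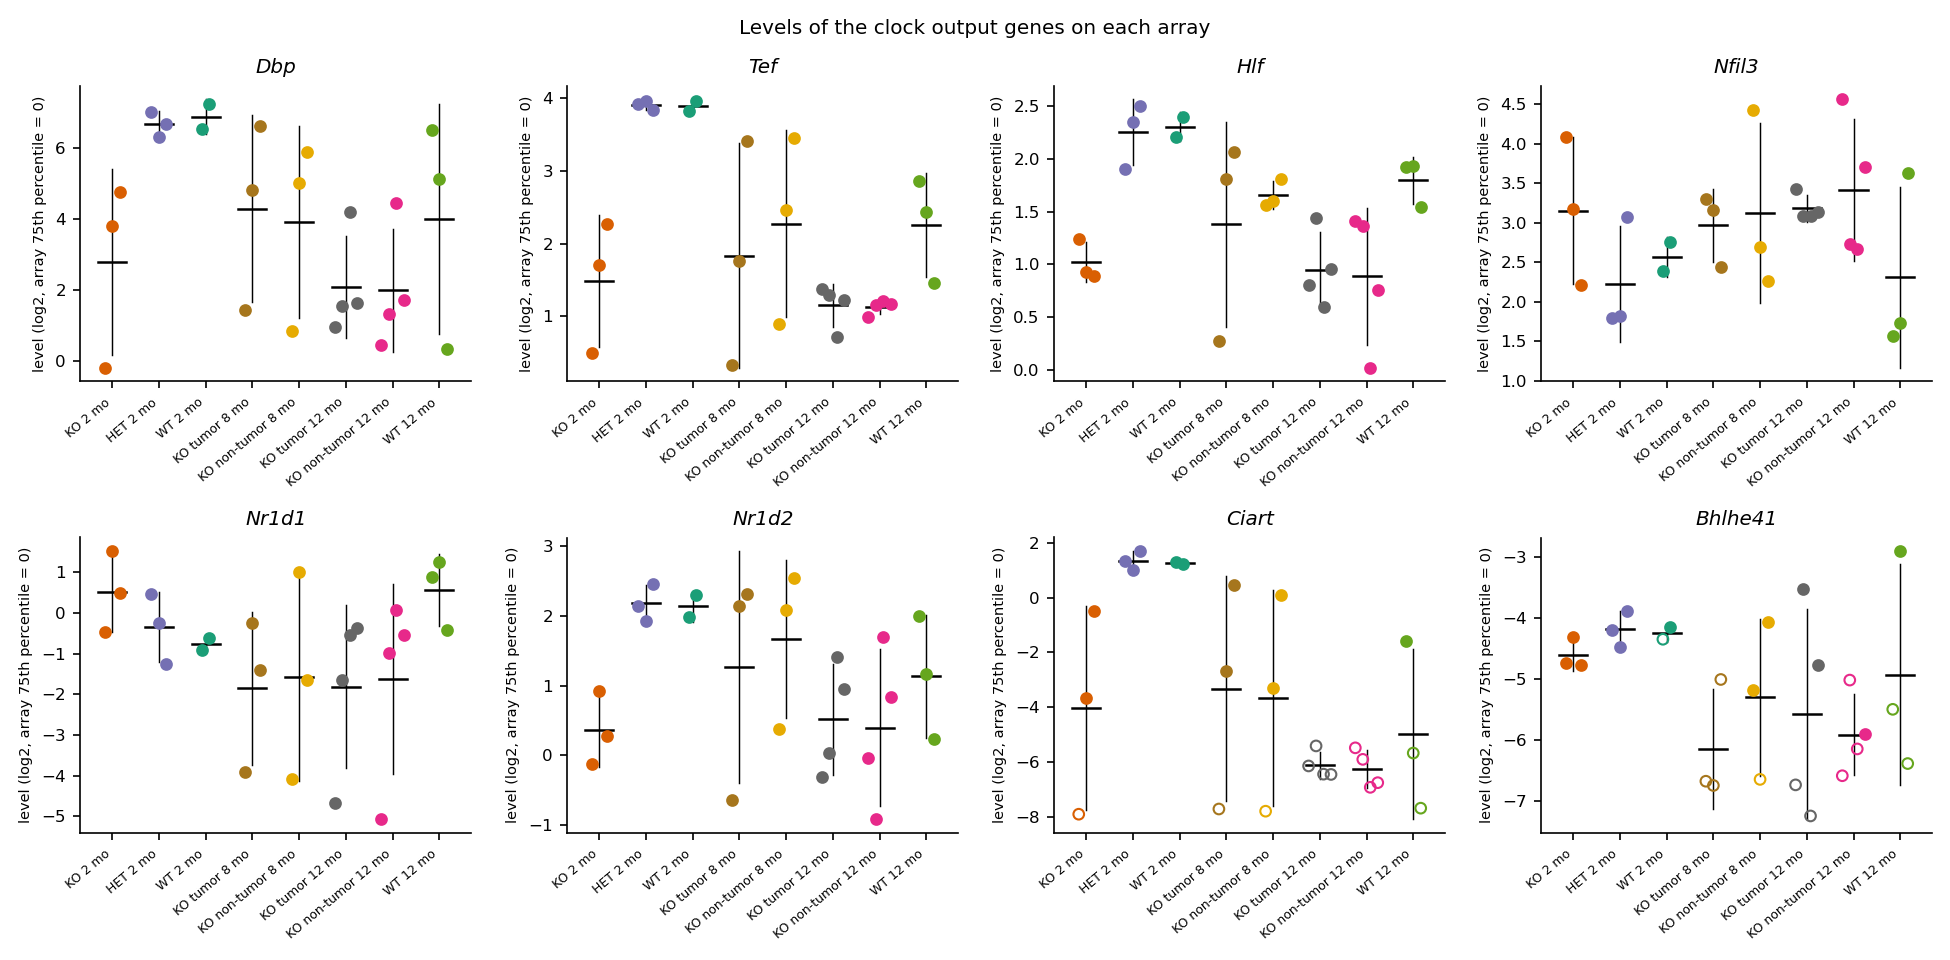
Level of each of the 8 genes (log2, array 75th percentile at 0, vertical axis) on every array by group, with the group mean as a bar and the SD as a line; open circles were not well above background. Dbp, Tef, Hlf, Nr1d2 and Ciart lie lower in all 3 knockout livers of 2 months than in the hemizygous and wild-type livers of that age.

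Marker levels of some other cells differed in the 2-month knockout. The mean level of 5 dividing-cell markers was -1.12 to 1.57 in knockout livers, against -3.57 to -2.18 in hemizygous and -2.93 to -2.90 in wild-type livers. Neutrophil markers, 3 of 4 on the array, ranged from -1.86 to 0.10 in knockout livers, against -5.35 to -3.87 in hemizygous and -4.62 to -4.09 in wild-type livers. S100a8 was well above background on no hemizygous or wild-type array of that age. Macrophage markers ranged from 1.73 to 2.29 in knockout livers, against 0.70 to 1.36 in hemizygous and 0.75 to 1.01 in wild-type livers, and stellate and matrix markers from 2.11 to 2.31, against 1.26 to 1.64 and 0.93 to 1.06. Cholangiocyte markers (-1.14 to -0.91, against -1.25 to -1.20 and -1.74 to -1.50) and B cell markers (-3.51 to -2.97, against -4.83 to -3.85 and -3.64 to -3.58) were also higher. Those of T and NK cells overlapped, at -3.44 to -3.05 against -3.93 to -3.39 and -3.83 to -2.78, as did erythroid markers. Endothelial markers, at -0.12 to 0.89, overlapped wild-type (0.53 to 0.59) and lay below hemizygous livers (0.93 to 1.16). Hepatocyte markers ranged from 7.51 to 7.92 in knockout livers, against 7.72 to 7.97 in hemizygous and 7.92 to 8.16 in wild-type livers. Their part in the values of the 8 genes was not tested, nor was that of the hour of collection or of sex. In whole liver, fewer cells of a type and less RNA per cell cannot be told apart.

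Genes that act with these factors were counted from lists of known partners and targets. Of 11 genes of the core loop, 0 passed with limma in the 2-month knockout against wild type and 4 had an unadjusted p under 0.05, where 0.0259% and 8.88% of all genes did, with a median change of -0.65 against -0.01 over all genes. Arntl, the activator that REV-ERB receptors repress, was at 0.44, 2.25 and 2.58 in knockout livers, against -2.70, -1.78 and -1.65 in hemizygous and -2.72 and -2.41 in wild-type livers. Its ranges did not overlap, and its change of 4.32 (SE 0.93, limma adjusted p = 0.19) was opposite in sign to those of Dbp, Tef and Ciart. The other 3 with the smallest p were Per1 with -2.55, Clock with 1.07 and Per3 with -1.70. Of 8 listed PAR bZIP targets, 7 were tested (Cyp2c50 was not), 0 passed and 1 had an unadjusted p under 0.05, and all 7 changes were below 0, as 51.0% of all genes were, with a median of -1.44. They included Por, the electron donor of cytochromes P450, with a change of -1.76, Alas1, which starts heme synthesis, with -2.47, and Nr1i3, the receptor CAR, with -1.44. Of 9 other rhythmic genes, 0 passed and 6 had an unadjusted p under 0.05, against the same 8.88%, led by Gys2, liver glycogen synthase, with -2.10 (SE 0.39, limma adjusted p = 0.11) and Lpin1 with -3.29. Of 6 genes repressed by REV-ERB, 0 passed and 4 changes were above 0, where 51.0% of all genes were below 0. Of the 6, 2 had an unadjusted p under 0.05, against 8.88% of all genes. The 2 are Arntl and Clock, already counted in the core loop, and the list also holds Nfil3.

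At 12 months the same question was asked of non-tumor tissue of knockout mice against wild-type liver. Hlf and Tef were lower in all 4 knockout samples than in the 3 wild-type livers, and the remaining 6 genes overlapped. None of the 8 passed an adjusted p of 0.05 with limma, where 0.0185% of 27024 genes did (5 genes). At an unadjusted p under 0.05, 2 of 8 were lower, against 8.64% of all genes lower and 17.3% in either direction, and ranges lay wholly lower for 4.78% of all genes. The count of 2 was 5 without wild-type animal 1110 and 1 without wild-type animal 552 or 641 or knockout animal 1109, 638 or 793. The share of all genes at that p was not counted in these refits, so these counts have nothing to be set against. Tef was at 0.99, 1.15, 1.17 and 1.21 in knockout samples, against 1.46, 2.44 and 2.87 in wild-type livers, with a change of -1.13 (SE 0.52, limma adjusted p = 0.28). The 4 knockout values were within 0.22 of each other. Hlf was at 0.02, 0.76, 1.36 and 1.41 in knockout samples, against 1.54, 1.92 and 1.93 in wild-type livers, with a change of -0.91 (SE 0.30, limma adjusted p = 0.16). Without knockout animal 638 the change of Hlf was -1.07 and passed the threshold (limma adjusted p = 0.044), in a fit that called 2869 genes in all.

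The wild-type livers of 12 months were not alike. Dbp was at 0.43, 1.32, 1.72 and 4.46 in knockout samples, against 0.34, 5.14 and 6.51 in wild-type livers. Wild-type animal 1110 had less Dbp than any knockout sample of that age, although its slide-mate, wild-type animal 552, had the most. The change of -2.01 (SE 1.56, limma adjusted p = 0.56) is smaller than this spread within the wild-type group. Nfil3 ran the other way, at 2.67, 2.73, 3.70 and 4.56 in knockout samples, against 1.57, 1.73 and 3.63 in wild-type livers, with the 3.63 in animal 1110. Nr1d2 was at -0.92, -0.04, 0.84 and 1.70 in knockout samples, against 0.24, 1.16 and 2.00 in wild-type livers, again with the lowest wild-type value in animal 1110. Nr1d1 was at -5.07, -0.98, -0.54 and 0.07 in knockout samples, against -0.43, 0.87 and 1.25 in wild-type livers. A single knockout sample, that of animal 1109, was far below the rest, and the change was -2.19 (SE 1.19, limma adjusted p = 0.37).

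Ciart was well above background on 0 of 4 knockout samples of 12 months and on 1 of 3 wild-type livers, so the size of its difference is uncertain. The measured change was -1.29 (SE 1.81, limma adjusted p = 0.77). Measured levels were -6.92, -6.75, -5.90 and -5.48 in knockout samples, against -7.68, -5.67 and -1.58 in wild-type livers, and without wild-type animal 552 the change was 0.41. Bhlhe41 was at -6.59, -6.15, -5.91 and -5.02 in knockout samples, against -6.39, -5.50 and -2.90 in wild-type livers. Its values overlapped, and most were not well above background. The change of Bhlhe41 was -0.99 (SE 0.70, limma adjusted p = 0.51), but -3.02 with scan day as a block (limma adjusted p = 0.025) and 0.02 without wild-type animal 641, the array with the most probes above background. Of the core loop 0 of 11 passed and 3 had an unadjusted p under 0.05, against 17.3% of all genes: Per3 with a change of -1.62, Clock with 0.75, and Cry2, which averaged -0.57 in knockout samples and 0.43 in wild-type livers. Of the PAR bZIP targets 0 of 7 passed and 1 had an unadjusted p under 0.05, Nr1i3 with -1.60, a share near that of all genes. Changes were above 0 for 3 of these targets and below 0 for 4, where 55.0% of all genes were below 0. Of the 9 other rhythmic genes 0 passed and 0 had an unadjusted p under 0.05, against the same 17.3%, with a median change of -1.07. Of the 6 genes repressed by REV-ERB 0 passed and 1 had an unadjusted p under 0.05, Clock, already counted in the core loop.

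Marker levels of some cells differed in the 12-month knockout as well. T and NK cell markers averaged -1.80 to -0.95 in knockout non-tumor samples, against -4.07 to -2.47 in wild-type livers. Macrophage markers ranged from 1.25 to 2.78 in knockout samples, against -0.25 to 1.22 in wild-type livers, and cholangiocyte markers from -0.62 to 0.53, against -1.05 to -0.74. Dividing-cell markers ranged from -1.68 to 0.78 in knockout samples, against -4.88 to -2.23 in wild-type livers. Hepatocyte markers overlapped, at 7.06 to 7.51 in knockout samples against 7.32 to 7.87. Stellate and matrix markers also overlapped, at 1.55 to 2.01 against 0.78 to 2.15, as did neutrophil markers, at -1.46 to 0.24 against -3.21 to -0.21. Endothelial markers (0.63 to 1.13 against 0.25 to 1.18) and those of B cells and erythroid cells overlapped too. The part of these cells in the values of Tef and Hlf was not tested, nor was that of sex. Whether the knockout difference itself changed between the ages was tested as an interaction: 0 of 8 genes passed with limma and 0 had an unadjusted p under 0.05, beside 0% and 9.6% of 27016 genes. The interaction of Nr1d1 was -3.48 (SE 1.86, limma adjusted p = 0.56) and that of Dbp 2.09 (SE 2.43, limma adjusted p = 0.78). For Ciart, which was mostly not well above background at 12 months, no size is given.

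**Figure D2:**
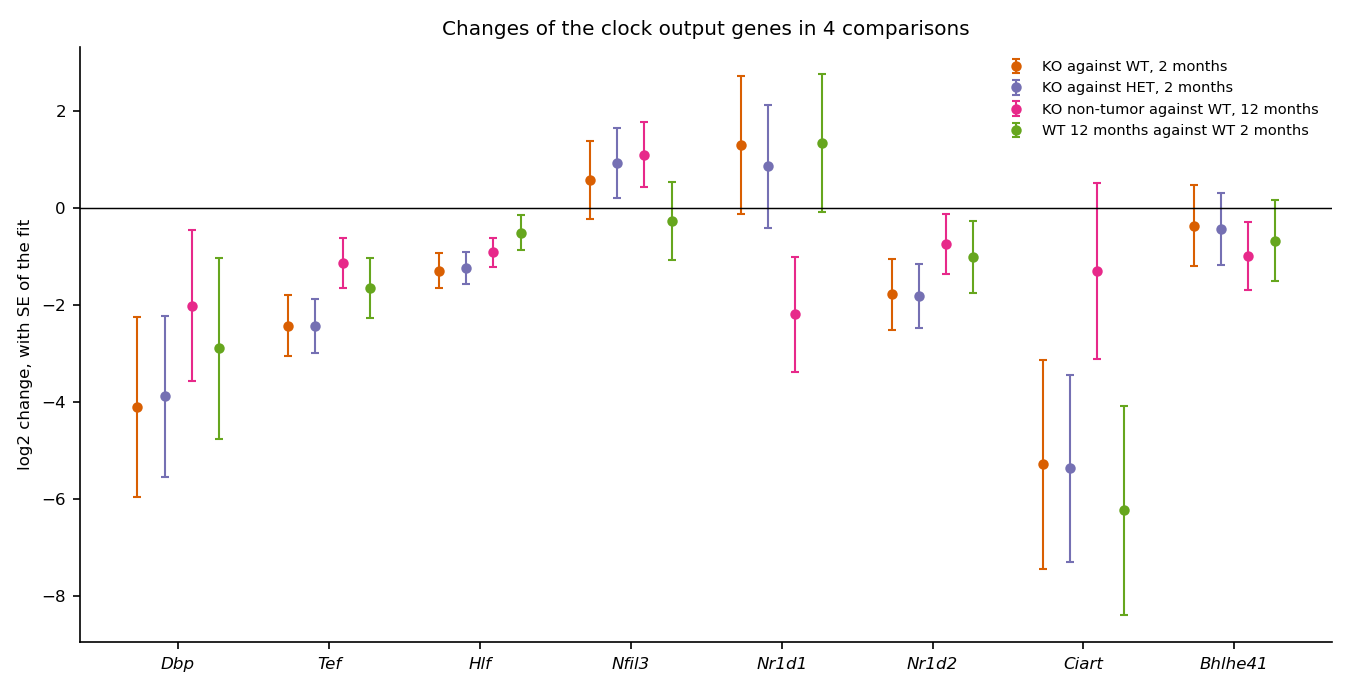
Change of each gene (log2, vertical axis) with the SE of the fit in 4 comparisons, of which 3 use the wild-type or knockout arrays of 2 months. Changes of Dbp, Tef, Hlf, Nr1d2 and Ciart are below 0 in each, those of Nr1d1 differ in sign, and none passed an adjusted p of 0.05.

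Between wild-type livers of 12 and 2 months, which share the 2-month wild-type arrays with the comparison above, 0 of 8 genes passed with limma, where 0.0407% of 27017 genes did. Ciart and Tef were lower at an unadjusted p under 0.05, beside 5.76% of all genes lower and 10.6% in either direction. Ciart, Dbp, Hlf and Tef were wholly lower at 12 months, as 12.4% of all genes were, and Nr1d1 wholly higher, as 15.5% were. The change of Nr1d1 was 1.34 with the used probe, 0.09 and -0.84 with its others, and -0.80 with slide as a fixed block. Ciart was at -7.68, -5.67 and -1.58 at 12 months, against 1.21 and 1.31 at 2 months, a change of -6.23 (SE 2.16, limma adjusted p = 0.33), with 1 of 3 older arrays well above background. The change of Tef was -1.64 (SE 0.62, limma adjusted p = 0.38). Without wild-type animal 1110, 0 of the 8 genes had an unadjusted p under 0.05, and the share of all genes in that refit was not counted. Arntl was at -0.24, 0.78 and 2.33 at 12 months, against -2.72 and -2.41 at 2 months. Some of the lists moved between wild-type ages too. The core loop had a median change of -0.16 and the genes repressed by REV-ERB 0.00, against -0.03 over all genes. In these lists 0 genes passed, and 3 of 11 and 1 of 6 had an unadjusted p under 0.05, against 10.6% of all genes. All 7 PAR bZIP targets tested were below 0, as 51.5% of all genes were, with a median change of -1.43. Of these targets 0 passed the threshold and 2 had an unadjusted p under 0.05. Of the 9 other rhythmic genes 0 passed and 5 had an unadjusted p under 0.05, against 10.6% of all genes, with a median of -2.14.

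Within the knockout, non-tumor tissue of 12 months was compared with 2-month liver and with non-tumor tissue of 8 months. Against 2 months, 0 of 8 genes passed with limma and 0 had an unadjusted p under 0.05, where 0.0074% and 17.4% of 27023 genes did, and Bhlhe41 alone was wholly lower, as 13.6% of all genes were. Against 8 months, 0 of 8 passed with limma, beside 0% of 27024 genes, and Hlf and Tef were lower at an unadjusted p under 0.05, beside 4.12% of all genes lower and 5.25% in either direction. Hlf was at 0.02, 0.76, 1.36 and 1.41 at 12 months, against 1.56, 1.60 and 1.81 at 8 months, a change of -0.77 (SE 0.30, limma adjusted p = 0.91). Its ranges did not overlap, as for 4.34% of all genes that were wholly lower. The change of Tef was -1.14 (SE 0.52, limma adjusted p = 0.91), and its values overlapped, with 8-month animal 1347 at 0.90. The count at an unadjusted p under 0.05 was 0 of 8 without 8-month animal 934 and 5 of 8 without 8-month animal 1347, and the share of all genes in these refits was not counted. For Ciart, the measured change was -2.59 against 8 months (SE 1.81, limma adjusted p = 0.93) and -2.25 against 2 months (SE 1.81, limma adjusted p = 0.53). It was well above background on 2 of 3 arrays in each of the younger groups and 0 of 4 in the older. Values at background enter the means of all these groups, so the sizes are uncertain. Each change rests on a single animal: it was -0.72 without 8-month animal 934 and -0.49 without 2-month animal 69.

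Tumor tissue was compared with non-tumor tissue of the same 7 animals. Mean changes of the 8 genes were between -0.22 and 0.24 with SEs of 0.17 to 0.37, none passed with limma, beside 0% of 24580 genes, and 0 had an unadjusted p under 0.05, beside 4.04% of all genes. No gene of the 8 had the same sign in all 7 animals, as 1.47% of all genes had. Dbp was at a median of 1.64 in tumors (lowest 0.95, highest 6.62), against 1.72 in non-tumor tissue (lowest 0.43, highest 5.90). The tissues covered the same range, with a change of 0.21 (SE 0.17, limma adjusted p = 1), and 4 of 7 tumors were higher. Tef had a median of 1.29 in tumors (0.33 to 3.42), against 1.17 in non-tumor tissue (0.90 to 3.46), and a change of -0.17 (SE 0.17). Nr1d1 had a median of -1.41 in tumors (-4.68 to -0.25), against -0.98 in non-tumor tissue (-5.07 to 1.01), and a change of -0.22 (SE 0.23). The difference of the tumor effect between 12 and 8 months passed for 0 of 8 genes with limma, with 0 at an unadjusted p under 0.05, beside 0% and 6.06% of all genes. Hepatocyte markers ranged from 6.62 to 7.34 in 8-month tumors, against 7.38 to 7.49 in non-tumor tissue, and from 6.78 to 7.25 in 12-month tumors, against 7.06 to 7.51 in non-tumor tissue, and their part was not tested.

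For most of the 8 genes, differences between animals were larger than those between the tissues of an animal. In animal 934 Dbp was at 6.62 in tumor and 5.90 in non-tumor tissue, and in animal 1287 at 4.81 in tumor and 5.02 in non-tumor tissue. In animal 702 it was at 4.19 in tumor and 4.46 in non-tumor tissue, and in animal 793 at 1.64 in tumor and 1.72 in non-tumor tissue. The remaining animals, 638, 1347 and 1109, had tumor levels of 1.54, 1.42 and 0.95 beside non-tumor levels of 1.32, 0.84 and 0.43. The 7 animals thus stood in the same order in both tissues. Averaged over animals, tumor and non-tumor Dbp of an animal lay 0.38 apart, against a median distance of 2.89 between a tumor and non-tumor tissue of another animal, a ratio of 0.13. Over 24223 genes the median of this ratio was 0.874, and 0.0372% of genes had a lower ratio than Dbp.

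The ratio was 0.165 for Ciart, 0.215 for Nr1d1, 0.303 for Nr1d2 and 0.431 for Tef, with lower ratios in 0.0826%, 0.248%, 0.999% and 4.92% of genes. That of Nr1d1 is for the used probe, which its other probes followed at r = 0.71 and 0.27. Ciart was at 0.44 in tumor and 0.08 in non-tumor tissue of animal 934 and at -2.69 in tumor and -3.29 in non-tumor tissue of animal 1287, and the other 5 animals were not well above background in either tissue. Nr1d1 was lowest in both tissues of animals 1109 and 1347, with tumor levels of -4.68 and -3.91 and non-tumor levels of -5.07 and -4.09, while no other sample of the older knockouts was below -1.66. Nr1d2 was at 2.32 in tumor and 2.54 in non-tumor tissue of animal 934, the highest of the 7 in each. Hlf (0.669), Bhlhe41 (0.676) and Nfil3 (0.834) were nearer the median gene. Nfil3 differed more among non-tumor samples (SD 0.93) than among tumors (SD 0.32). For Arntl the ratio was 0.15, with its tumor below its non-tumor level in 7 of 7 animals, by a mean of 0.11. Such a shared sign was found for 1.47% of all genes, and the change of Arntl was -0.11 (SE 0.12, limma unadjusted p = 0.36).

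Both tissues of an animal lay on the same slide for 6 of 7 animals. Between non-tumor samples of different animals on a shared slide, Dbp differed by 3.15 (702 minus 638), 0.87 (934 minus 1287) and 1.29 (793 minus 1109). Nr1d1 differed by 1.05, -2.68 and 4.53 in the same pairs, and Tef was at 1.21 and 1.15, at 3.46 and 2.46, and at 1.17 and 0.99. In animal 1347, whose tissues lay on different slides, tumor minus non-tumor differences were 0.58 for Dbp, 0.18 for Nr1d1 and 0.08 for Ciart. For Hlf (-1.29), Nr1d2 (-1.03) and Bhlhe41 (-1.50) they were the largest in size of the 7 animals, for Nfil3 the difference was -1.12, and for Tef -0.57. The part of the slide in the likeness of tissues was not tested. This measure of distance was chosen after the levels had been seen and is a description with no test.

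**Figure D3:**
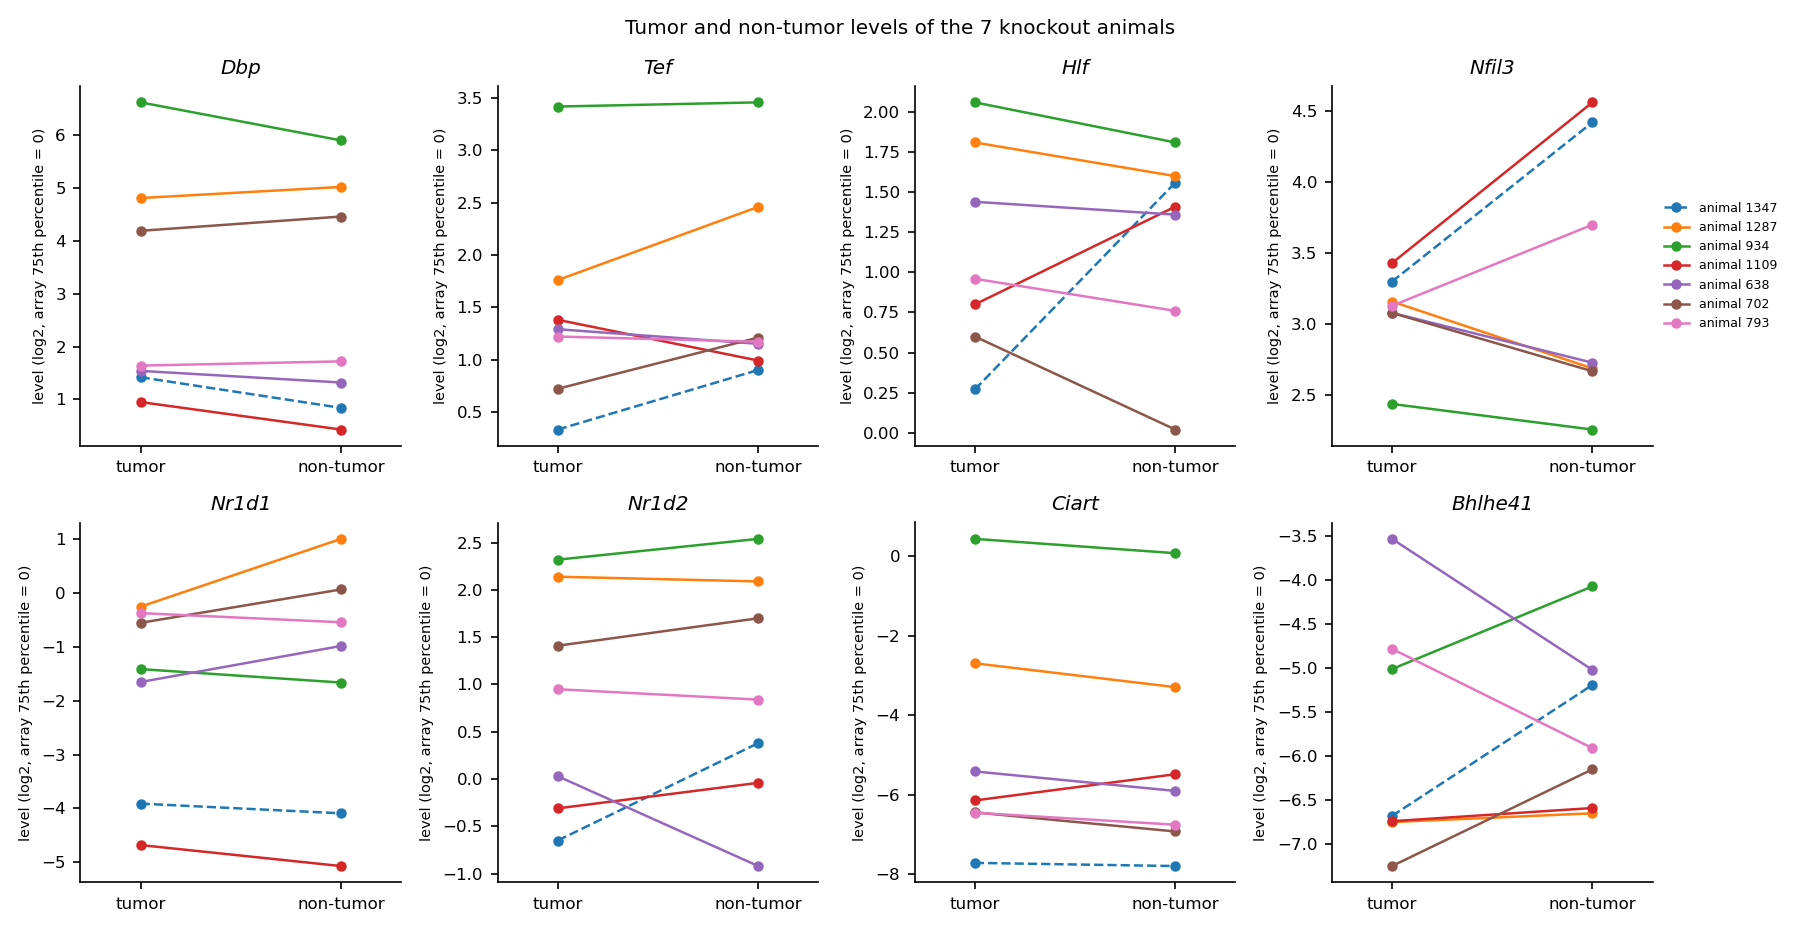
Level of each gene (log2, vertical axis) in tumor and non-tumor tissue, joined per animal for the 7 knockout animals of 8 and 12 months; the dashed line marks animal 1347, whose tissues were on different slides. Dbp lines are nearly level, with animals spread between 0.43 and 6.62.

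The spread between mice of a group set several of these genes apart from each other. The pooled SD within the groups without tumor was 2.22 for Dbp and 1.69 for Nr1d1, above 99.9% and 99.6% of the 15952 genes well above background on every array, whose median was 0.41. Nfil3 with 0.94 lay above 94.1% of these genes, Nr1d2 with 0.85 above 91.4%, Tef with 0.71 above 84.1% and Hlf with 0.38 above 43.5%. The rank of Nr1d1 holds for the used probe and values. The SE of its 2-month change against wild type was 1.42 there, but 0.80 with the mean of its probes and 0.80 with normexp background correction. For Dbp these were 1.86, 1.86 and 1.77. Ciart and Bhlhe41 are not ranked, since they were well above background on 10 and 11 of the 18 arrays. The 2-month hemizygous and wild-type livers were narrow for most of them: over these 5 arrays Dbp ranged from 6.30 to 7.23, Tef from 3.83 to 3.97 and Ciart from 1.01 to 1.70. With the 8 groups ordered by mean level, neighbouring groups overlapped in range for every gene, except that for Tef the 8-month non-tumor knockouts (mean 2.27) lay wholly below the 2-month wild-type livers (mean 3.90), and for Ciart the 8-month tumors (mean -3.32) wholly below the 2-month wild-type livers (mean 1.26).

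Several of the genes moved together over the arrays, given here as a description with no test, since arrays share animals, groups and slides. Over 25 arrays Dbp correlated with Tef (r = 0.88), Nr1d2 (r = 0.88) and Ciart (r = 0.87), and inversely with Nfil3 (r = -0.79). Over the 18 arrays without tumor, after group means were subtracted, Dbp and Tef had r = 0.88, Dbp and Nfil3 r = -0.85, and Tef and Ciart r = 0.94. Hlf had r = 0.79 with Tef, 0.72 with Ciart and 0.57 with Dbp over the 25 arrays, but its deviations from group means had r = 0.03 with Tef, 0.16 with Ciart and -0.24 with Dbp. Nr1d1 had r = 0.50 with Dbp and 0.46 with Nr1d2 over the 25 arrays, and 0.64 and 0.55 on deviations. Ciart was well above background on 12 of the 25 arrays and 10 of the 18 without tumor, so its r values rest partly on values at background. Bhlhe41, also often at background, had r = 0.37 with Dbp.

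Outside the 8 genes, Arntl ran opposite to Tef (r = -0.95), Ciart (r = -0.92), Dbp (r = -0.88) and Hlf (r = -0.71) over the 25 arrays, with r = -0.26 for Nr1d1. On deviations from group means these were -0.88, -0.84, -0.79, 0.05 and -0.31, in the same order of genes. Among 10946 genes compared, the pattern most like Dbp was that of Per1 (r = 0.88), followed by Lpin1 (r = 0.86) and Cpt1a (r = 0.85), and the most opposite included Arntl and Dnmt3b (r = -0.86). For Tef they were Per1, Usp2 and Lpin1 (r = 0.91 each), and opposite it Arntl, Chka (r = -0.94) and Tnfaip2 (r = -0.92). For Hlf they were Pank1 (r = 0.92), Nr1h4 (r = 0.88) and Clmn (r = 0.87), and opposite it Tnfaip2 (r = -0.88), Relb (r = -0.86) and Slc7a7 (r = -0.85). For Nfil3 they were Pnrc1 (r = 0.85), Abtb2 (r = 0.79) and Clpx (r = 0.77), and opposite it Tbc1d10a (r = -0.78), Flot1 (r = -0.78) and Fgfrl1 (r = -0.76). For Nr1d1 they were Tns2 (r = 0.80), Eef2k (r = 0.78) and Thoc3 (r = 0.72), and opposite it Krit1 (r = -0.79), Phf23 (r = -0.77) and Brms1l (r = -0.74). For Nr1d2 they were Cpt1a (r = 0.86), Zbed5 (r = 0.84) and Sec23a (r = 0.79), and opposite it Dnmt3b (r = -0.80), Ccnd2 (r = -0.78) and Gfod2 (r = -0.77). For Ciart they were Usp2 (r = 0.90), Lpin1 (r = 0.89) and Slc19a1 (r = 0.87), and opposite it Arntl and Chka (r = -0.91). For Bhlhe41 they were Sgtb (r = 0.87), Tbxa2r (r = 0.86) and Wnt11 (r = 0.85), and opposite it Lrig1 (r = -0.83), Rnd3 (r = -0.81) and Sorbs2 (r = -0.80), where many values of Ciart and Bhlhe41 were at background.

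**Figure D4:**
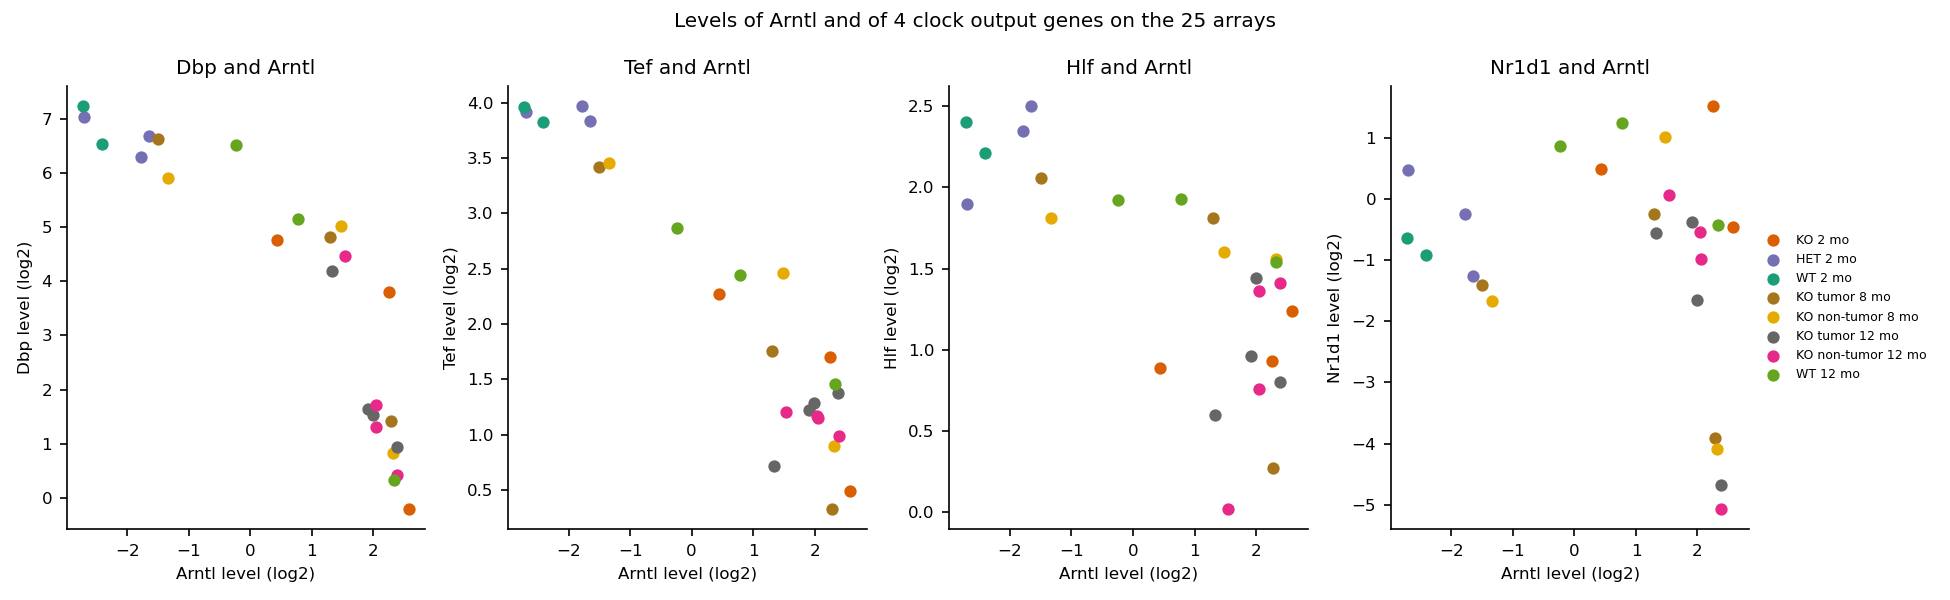
Levels (log2) of Dbp, Tef, Hlf and Nr1d1 on the vertical axes against that of Arntl on the horizontal axis, with each of the 25 arrays as a point coloured by group. Dbp and Tef are high where Arntl is low (r = -0.88 and -0.95), and Nr1d1 is lowest in the samples of animals 1109 and 1347, where Arntl was high.

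Further probes existed for 4 of the genes. The 2 other Tef probes tracked the used one (r = 0.93 and 0.90) and gave 2-month changes of -1.49 and -1.78. The other Nfil3 probe (r = 0.74) gave 1.01 in the 2-month knockout, but differed in sign between wild-type ages, with 0.72 where the used probe gave -0.26. For Nr1d1 the probes disagreed more: another followed the used one at r = 0.71 and a further one at r = 0.27, and this last gave -0.84 between wild-type ages where the used probe gave 1.34, and -0.39 in hemizygous against wild type where it gave 0.43. All 3 gave negative changes for Nr1d1 in 12-month knockout non-tumor tissue against wild type (-2.19, -1.62 and -0.88). The second Bhlhe41 probe was well above background on 4 of 25 arrays.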

How the data were processed

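Liver RNA was hybridised to 25 single-colour Agilent arrays. Per the file headers, the authors' scanner files were made with Feature Extraction 10.5.1.1 and hold an intensity per spot (a processed signal and the median signals of spot and background) with flags. The deposited value table holds log2 values per probe, and its order within each array was that of the uncorrected median signal (lowest Spearman correlation 1), with a median of 6.565 to 6.577 per array. The submitters' processing notes name limma, with no role or version.

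Levels were the log2 processed signal minus the 75th percentile of its array, with control spots and outlier flags left out and spots of a probe averaged. Of 41174 probes, 24375 (59.2%) were named by matching the accession to RefSeq (GRCm38.p6). Of several probes for a gene, the brightest by mean processed signal was used. Groups came from the labels. limma 3.58.1 (R 4.3.3, tables in Python 3.11.15) was fitted with lmFit and eBayes across all genes, with Benjamini-Hochberg adjustment and a threshold of 0.05. The first fit held 18 arrays without tumors in 6 groups (12 residual degrees of freedom) and genes well above background on at least 2 arrays. The second held 14 arrays of 7 animals, with the animal as a block (6 residual degrees of freedom) and genes well above background on at least 3. The pairing comes from the labels, which give tumor and non-tumor tissue the same animal number. Animals are numbered in the labels, and the number of arrays limits the precision.

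All 8 genes are named, with up to 4 genes of smallest p per list in the 2 comparisons of knockout with wild type, and for each of the 8 the 3 genes most like it and most opposite over the 25 arrays, apart from a result not reported here. The rule also allowed list genes of the other comparisons, which are left out. The 8 genes and the lists were chosen with earlier results of these data known. The distance between tissues, the spread within groups, values within slides, the slide as a random block and the promoters printed were chosen after the data had been seen. The planned normexp alternative used median signals, since no mean-signal column was used here. The fit was tested on simulated data.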

Additional observations from a re-analysis of the deposited data

Results flagged for a closer look

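Of 24 groups of values searched for a sample far from the others, 2 held one, and chance gives about 1 in 20 groups. Nfil3 in 12-month tumors was highest in animal 1109 at 3.43, while the other 3 tumors lay between 3.08 and 3.13, a gap of 0.84 of the whole range. The difference of Ciart between tumor and non-tumor tissue was lowest in the same animal at -0.66, a gap of 0.59 of the range of 7 animals, and neither tissue of animal 1109 was well above background for Ciart.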

How the results depend on the processing

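Of 80 gene and comparison results, none of the 8 genes' calls passed the adjusted threshold in any alternative except 2 in 12-month knockout non-tumor tissue against wild type. The count of genes past it there was 1 with scan day as a block (Bhlhe41, -3.02) and ranged from 0 to 1 when an array was left out (1 without knockout animal 638, Hlf, -1.07). With scan day as a block 3237 genes were called in all. The lower levels of Dbp, Tef, Hlf, Nr1d2 and Ciart in the 2-month knockout kept their sign in every alternative run for them. For Ciart these leave out the filter on genes well above background on every array, which it does not pass. With the animal pairing removed, so that tumor and non-tumor tissue had no replicate block, the change of Dbp was 0.21 with SE 1.07, and 0 genes passed with and without the block. The non-tumor comparisons share no animal numbers, and slide as a fixed block could not be estimated where 8- or 12-month knockout non-tumor groups were compared. The sign turned in 28 values outside leaving 1 out, of which 21 had slide or scan day as a block. With slide as a fixed block these were, in the 2-month knockout, Nr1d1 with -1.05 against wild type and -0.57 against hemizygous; in hemizygous against wild type, Tef -0.05, Hlf 0.20, Nfil3 0.50 and Nr1d1 -0.48; and between wild-type ages Hlf 0.34, Nfil3 1.82, Nr1d1 -0.80 and Bhlhe41 1.61 (1.35 with scan day). With either block, tumor against non-tumor gave Hlf 0.12, Nr1d2 0.05 and Bhlhe41 0.06, and the 12-month minus 8-month tumor effect gave Hlf -0.17. Quantile normalization turned Hlf to 0.01 (hemizygous against wild type), Nr1d1 to 0.09 (12 against 8 months) and Nr1d1 to -0.07 (tumor effect by age). Slide as a random block turned Dbp to 0.01 (hemizygous against wild type) and Nr1d1 to 0.07 (12 against 8 months). The mean of probes turned Nfil3 to 0.23 (wild-type ages) and -0.01 (interaction), and the deposited value table turned Bhlhe41 to 0.04 (interaction) and Nr1d1 to -0.01 (tumor effect by age). Leaving out each array or animal in turn turned the sign of 26 of the 80 results, with these lowest to highest values. Hemizygous against wild type: Dbp -0.57 to 0.13, Tef -0.05 to 0.08, Hlf -0.18 to 0.12, Nr1d2 -0.12 to 0.20, Ciart -0.08 to 0.26, Bhlhe41 -0.08 to 0.22. 12-month knockout against wild type: Ciart -2.64 to 0.41, Bhlhe41 -1.72 to 0.02. Wild-type ages: Nfil3 -0.92 to 0.11, Bhlhe41 -1.69 to 0.05. Knockout of 12 against 2 months: Dbp -2.30 to 0.18, Tef -0.85 to 0.04, Hlf -0.30 to 0.16, Nfil3 -0.21 to 0.73, Nr1d2 -0.40 to 0.47. Knockout of 12 against 8 months: Nfil3 -0.14 to 0.94, Nr1d1 -1.30 to 1.25, Bhlhe41 -1.29 to 0.00. Interaction: Bhlhe41 -1.36 to 0.38. Tumor against non-tumor: Hlf -0.19 to 0.12, Nr1d2 -0.28 to 0.05, Bhlhe41 -0.44 to 0.06. Tumor effect by age: Hlf -0.17 to 0.60, Nfil3 -0.56 to 0.23 (0.03 without animal 793), Nr1d1 -0.40 to 0.36 (-0.09 without animal 1109, -0.02 without 793), Ciart -0.33 to 0.07. The cause was not tested.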
